A study of Mus musculus with 2 samples.

Results

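The genes described here are the 272 protein-coding genes that each held 10 or more ac4C peaks in the uterus of wild-type mice. A peak was assigned by its summit, the base with the highest enrichment inside it. A gene was taken when 10 or more summits fell within its span in a RefSeq gene table of GRCm38, counting only summits that lay in exactly 1 protein-coding gene. Gse1, Hmcn2, Hspg2, Lrp1 and Zmiz1 also met that limit and were set aside. The table held 21900 protein-coding genes, of which 6367 had a summit. With the 5 genes set aside included, 1.26% of all protein-coding genes and 4.35% of those with a summit reached 10. The genes were chosen by their number of peaks, so the counts, enrichments and positions of their peaks are a description, with no test.

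The tissue was the whole uterus of wild-type mice, taken on gestational day 4, and polyA RNA was used. There was 1 library of RNA fragments pulled down with an antibody to ac4C and 1 input control library, both without replicates, and the number of animals was not given in the sources used here. The values came from 1 deposited list of 21192 peaks, a single set for the pull-down library, with positions in mm10. All 6 markers of uterine tissue had a peak, as did 5 of 6 markers of smooth muscle and 4 of 5 of epithelium (Epcam and Tagln held 0), against 1 of 4 markers of other tissues. Some markers of endothelium (3 of 4), leukocytes (2 of 4) and erythroid cells (1 of 2) had a peak too. Of all 21900 protein-coding genes, 6367 had a peak, and a peak does not measure the expression of a gene. In whole tissue, fewer cells of a type and less RNA per cell cannot be told apart.

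N4-acetylcytidine (ac4C) is an acetylated form of cytidine. The acetyltransferase NAT10 places it on ribosomal and transfer RNA, and it has been described on messenger RNA, where it has been linked to RNA stability and translation. In acRIP-seq, fragmented RNA is pulled down with an antibody to ac4C, so a peak marks a stretch of RNA over-represented in the pull-down and not a single modified base. Around day 4 of pregnancy the mouse uterus becomes ready for attachment of the embryo, with stromal growth and remodelling of the extracellular matrix.

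The deposited peaks carry no sequence. Letters for these genes were at hand only for summits inside the RefSeq promoter table, which covers 250 bases before to 50 after a start site and matched 223 of the 272 genes. Of the 3108 summits in those 223 genes, 5 lay in such a window (0.161%, 95% Wilson interval 0.0687 to 0.376). The share was 0.612% in genes with 1 peak, 0.499% in genes with 2 and 0.525% in genes with 3 to 9. These are shares of summits and not of genes, and the window is narrow. Within 1 kb of the 5′ end of the span lay 85 of the 3108 summits. All 5 summits in a window lay inside the gene span and 33 to 168 bases before a start site. The sequences of 4 of them show the letters there, with 14 bases either side of the summit in GRCm38.p6, read 5′ to 3′ along the gene. Capitals mark a match to CNN repeated 4 times, a motif that has been reported around ac4C sites.
Rere: ggCTCCCACTGCTGaaggcttggcccacc
Tacc2: agaggctgaaccgggggctttaagagaag
Emid1: aaggcagaaaagaggctttgtgctgagga
Inppl1: gcatgccaggccctgagctttacaggcag
The fold enrichment of a peak is the value the authors' peak caller gave, the pull-down signal over background at the summit. Its 95% interval is the exact Poisson interval of the pull-down fragments there, with the background taken as known. The Rere stretch (chr4:150281854-150281882, plus strand) held 12 cytidines of 29 bases and 1 match, and its peak had the highest enrichment of all peaks in that gene, 15.01-fold (11.5 to 19.2). The Tacc2 stretch (chr7:130692571-130692599, plus strand), the Emid1 stretch (chr11:5150169-5150197, minus strand) and the Inppl1 stretch (chr7:101837976-101838004, minus strand) held 0 matches on either strand. Their peaks stood at 5.62-fold (3.11 to 9.49), 4.58-fold (2.41 to 8.08) and 4.32-fold (2.21 to 7.82). Of 32851 promoter entries, 11.3% held the motif on the gene's strand in the central 29 bases and 11.9% on the other strand. A match is a description of letters and not of a modified site.

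The 272 genes held 3798 of the 19484 summits that lay in a single protein-coding gene, 19.5% of them (95% Wilson interval 18.9 to 20.1). The median gene held 12 summits, with quartiles of 10 and 15. There were 190 genes with 10 to 14 summits, 48 with 15 to 19 and 34 with 20 or more, of which 7 had 30 or more. Just inside the limit stood 80 genes with exactly 10 summits, with a median of gene medians of 5.73-fold, and just outside it 93 genes with exactly 9, at 6.07-fold. The 3 genes with the highest median enrichment among those with 10 were Prr12 at 10.3, Sik1 at 8.57 and Jup at 8.42. Among those with 9 they were Nid2 at 9.82, Scap at 9.30 and Bcl9l at 8.72.

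Ptprs, a receptor-type tyrosine phosphatase of the LAR family, held 39 summits in 64.1 kb (chromosome 17, 56412426 to 56476561). Fn1, which encodes fibronectin, held 37 in 67.8 kb. Near in number, these genes differed in enrichment, with medians of 5.98 in Ptprs and 4.53 in Fn1. Col18a1 (collagen XVIII, the source of endostatin) and Tnxb (tenascin-X, a matrix glycoprotein) held 33 each. Ubr4, a ubiquitin ligase of the N-degron pathway, held 32, and Sdk2, an immunoglobulin-type adhesion protein, held 31. Lama5 (laminin alpha 5) and Sbno2 (a transcriptional coregulator) held 27 each. These genes, all with over 25 summits, thus mixed matrix, adhesion, receptor, ubiquitin and transcription genes.

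**Figure D1:**
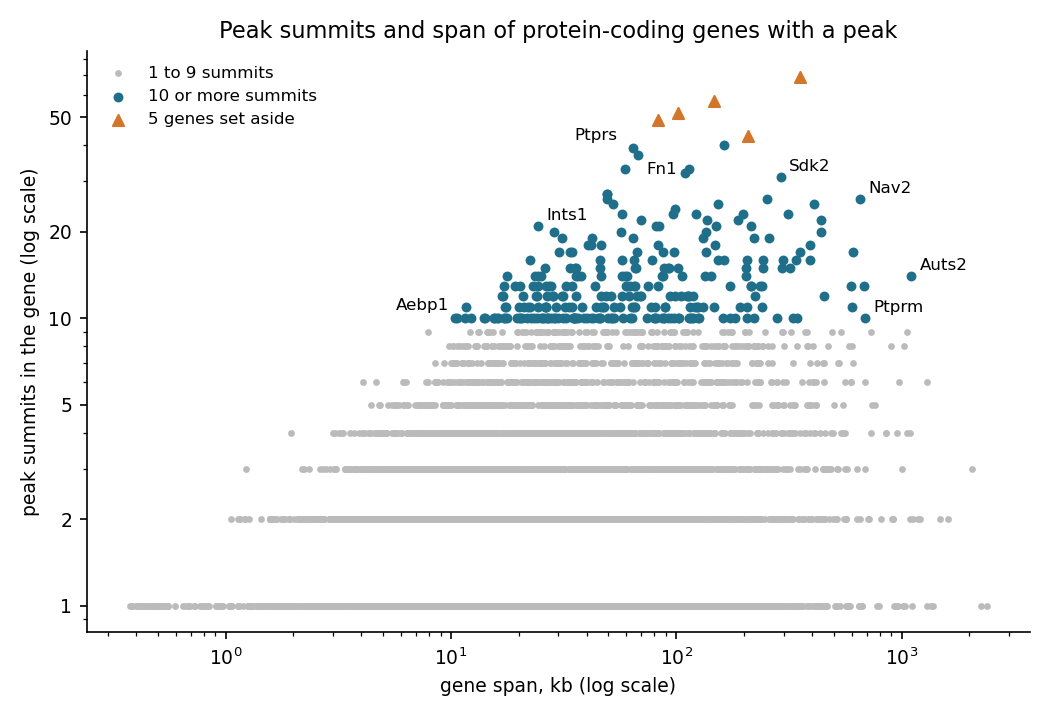
Each point is a protein-coding gene with a peak, with its span in kb on the horizontal axis and its number of summits on the vertical axis, both on log scales. Blue points are the 272 genes with 10 or more summits, gray points have 1 to 9 and triangles are the 5 genes set aside; the blue points begin at a span of 10.4 kb (Aebp1) and Ptprs stands at 39 summits.

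These were long genes. Their median span was 60.5 kb, against 21.7 kb for genes with 1 peak, 23.2 kb for 2 and 31.6 kb for 3 to 9. None of the 7939 protein-coding genes shorter than 10 kb reached 10 summits, although 1490 of them had a peak. By span, 22 of the genes were 10 to 20 kb long, 97 were 20 to 50 kb, 69 were 50 to 100 kb, 43 were 100 to 200 kb and 41 were longer than 200 kb. They made up 1.89% of genes with a peak in the shortest of these classes and 8.84% in the longest. Within the set, the number of summits followed span only loosely, with a Spearman correlation of 0.34 across 272 genes, and across all 6367 genes with a peak it was 0.21. The genes share 1 library, and no p is given.

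The density of peaks ran from 0.127 per 10 kb in Auts2 to 9.63 per 10 kb in Aebp1, with a median of 2.31. It fell with span almost throughout (Spearman correlation −0.94 across 272 genes), as a number of summits held near the limit and divided by length must. Aebp1, which encodes a secreted collagen-binding protein of the matrix, fitted 10 summits into 10.4 kb (chromosome 11, 5861866 to 5872248), and its peaks covered 50.4% of the span. Adamtsl4, an ADAMTS-like matrix protein, held 9.38 per 10 kb, and Lamb2, laminin beta 2, held 9.36. Sik1, a salt-inducible kinase, held 8.65, and Ints1, the largest subunit of the Integrator complex, held 8.60 with 21 summits in 24.4 kb. Peaks covered most in Col1a1, 71.8% of its 16.8 kb, and covered over 50% of the span in 6 genes.

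At the sparse end, Auts2, a regulator of transcription associated with Polycomb proteins, spread 14 summits over 1106 kb, with 1 gap of 565 kb between neighbours. Ptprm, an adhesive receptor phosphatase, spread 10 summits over 688 kb. Kalrn, a guanine exchange factor for small GTPases, held 11 summits in 604 kb. Zfhx3, a homeodomain and zinc-finger transcription factor, and Lpp, a LIM-domain protein of focal adhesions, held 13 each in 682 and 599 kb. In Zfhx3 the summits all lay past 60% of the span, whereas in Lpp and Ptprm they were spread along it.

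**Figure D2:**
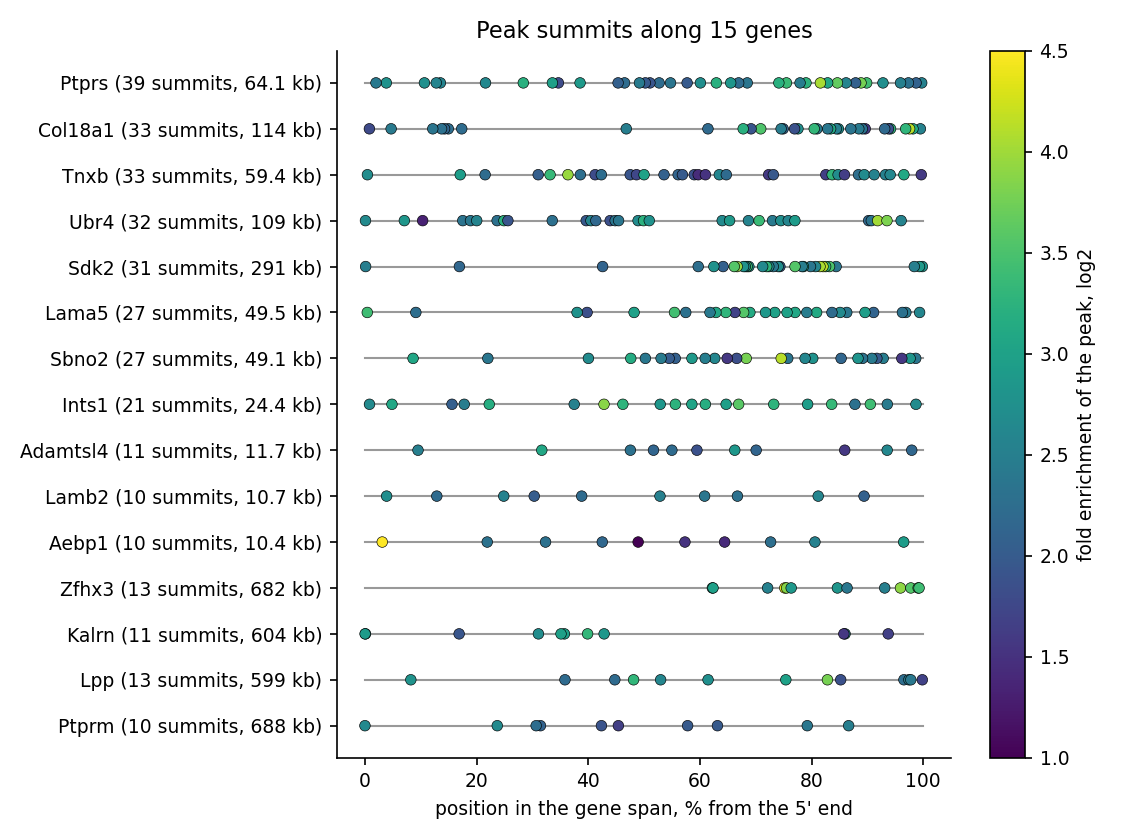
Summits along 15 of the genes whose strand was known, from the 5′ end at 0% to the 3′ end at 100% of the span, coloured by the log2 fold enrichment of the peak. The upper genes hold many summits (39 in Ptprs), the middle ones are short and dense (10 in the 10.4 kb of Aebp1) and the lower ones are long and sparse (10 in the 688 kb of Ptprm).

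Neighbouring summits in the 272 genes made 3526 pairs, with a median distance of 1900.5 bp and quartiles of 966 and 5045 bp. With peaks less than 500 bp apart joined, 141 genes reached 10, their median spacing was 3648.5 bp and their median density 1.26 per 10 kb. Without joining, the median distance was 3339 bp in genes with 2 peaks and 2407 bp in genes with 3 to 9. Of the pairs, 934 (26.5%) were under 1 kb apart and 530 (15.03%) were over 10 kb apart. The smallest distance between the edges of neighbouring peaks was 118 bp, and it was 118 bp in genes with 2 and with 3 to 9 peaks too. If summits within 5 kb of the next are taken as 1 cluster, 46 of the genes held all their summits in 1 cluster, and the median gene had 3 clusters. A gap of over 50 kb was found in 43 genes.

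Adamtsl4 had the closest spacing, with a median of 660.5 bp between summits. Lmtk3, a member of the lemur tail kinase family, followed at 724.5 bp, Jak3, a cytokine receptor kinase, at 745 bp, Sik1 at 796 bp and Dchs1, a giant cadherin of planar cell polarity, at 800 bp. The widest spacing was in Ptprm, with a median of 50948 bp. Lpp stood at 36846 bp, Kalrn at 24742.5 bp, Tgfbr3, the coreceptor betaglycan, at 20960 bp and Sema5a, a semaphorin, at 18903 bp. Genes with wide spacing were long ones (Spearman correlation of spacing and span 0.73 across 272 genes). Distances are along the genome and include introns, which polyA RNA mostly lacks, so they are not distances along the spliced transcript.

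The median fold enrichment over the 3798 peaks was 5.82, with quartiles of 4.46 and 7.95. In genes with 1, 2 and 3 to 9 peaks the medians were 5.25, 5.33 and 5.62, so the step from class to class was small beside the spread within each. Peaks of 10-fold or more numbered 486, or 12.8% (95% Wilson interval 11.8 to 13.9), where 9.47% of all single-gene peaks reached that level. The shares were 6.74%, 7.01% and 9.43% in the classes with fewer peaks. The background at a summit is the number of fragments the peak caller set the pull-down against. Whether it came from the input library, nearby pull-down signal or the whole genome was not given in the sources used here. It moved with the number of peaks: its median was 3.15 fragments at the summit in the 272 genes and 2.19, 2.32 and 2.64 in the other classes. The median number of pull-down fragments at the summit was 26, against 17, 19 and 22. Both differed between the classes, and their part in the number of peaks was not tested.

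At like background the same order was seen. For summits with a background of under 1 fragment, the median enrichment was 7.01 in the 272 genes and 6.34 in genes with 1 to 9 peaks. At 2 to 4 fragments it was 6.30 and 5.65, and at 16 or more it was 3.41 and 3.14. Enrichment fell as background rose in both. Across the 272 genes the median enrichment and median background of a gene had a Spearman correlation of −0.56. The background is the divisor of the enrichment, so such a fall is in part built in. The number of summits and the median enrichment of a gene were not related in rank (Spearman correlation 0.003).

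**Figure D3:**
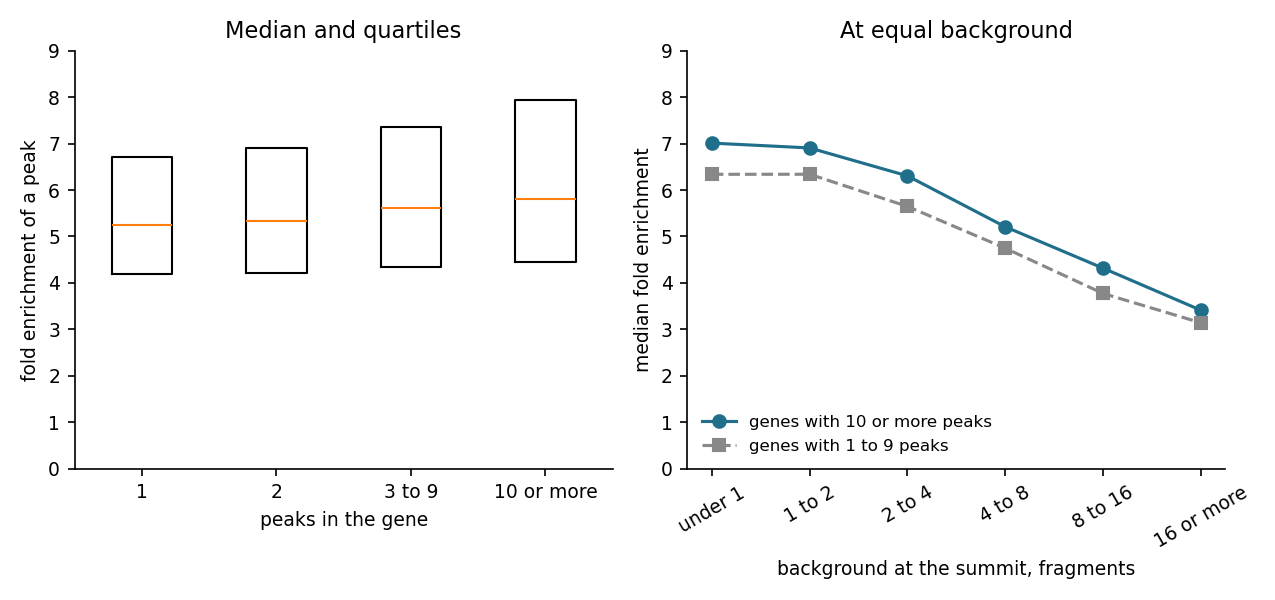
Left, the median (line) and quartiles (box) of the fold enrichment of single peaks, by the number of peaks in the gene; right, the median fold enrichment by background fragments at the summit. The medians on the left rise from 5.25 to 5.82 while the boxes overlap, and on the right the blue line of the 272 genes lies above the gray line of genes with 1 to 9 peaks in all 6 background classes, from 7.01 against 6.34 to 3.41 against 3.14.

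Within a gene the peaks were unequal. The highest peak exceeded the lowest by a median factor of 3.50, from 1.44 in Lmtk3 to 11.6 in Aebp1. The 95% counting intervals of the highest and the lowest peak did not overlap in 240 of the 272 genes. Of all genes with 2 or more peaks, 35.7% showed this. These intervals leave out error in the background. A gene with more peaks has more chances of a high and a low one, so these shares are not set against each other. At least 1 peak of 10-fold or more was present in 191 of the genes, where 19.4% of all genes with a summit had one, and 81 genes had none. More peaks give more chances of a high one here too, so these shares are likewise not set against each other. In Lmtk3 the peaks rested on a median of 9 fragments, and none of its 11 peaks reached a −log10 q of 10.

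The highest median enrichment was in Zmiz2, a coactivator with a PIAS-type zinc finger, at 12.3. Its 11 peaks ran from 5.81-fold to 16.7-fold (interval 13.02 to 21.2). Prr12, a proline-rich nuclear protein, had a median of 10.3. Gaa, the lysosomal acid alpha-glucosidase, had a median of 9.73, and Setd1b, a methyltransferase of histone H3 lysine 4, one of 9.53.

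Among the lowest medians was that of Flna, the actin cross-linker filamin A, at 2.91. Col6a3, a chain of collagen VI, stood at 2.96, Myh11, the smooth muscle myosin heavy chain, at 3.41 and Lsp1, an actin-binding protein of leukocytes, at 3.47. None of these 4 genes had a peak of 10-fold or more. Their median background was high, at 30.6 fragments in Flna, 14.9 in Col6a3, 21.01 in Myh11 and 8.62 in Lsp1, against 3.08 for the median gene of the set. These genes thus reached 10 peaks at low enrichment over a high background value. The background is the divisor of the enrichment, and how far it set these values was not tested.

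The strongest single peak of the set was in Bmp1, the protease that trims procollagens. It lay at 70519926 to 70520256 on chromosome 14 and stood at 32.9-fold (24.7 to 42.9), with 52 fragments over a background of 0.613. The other 10 peaks of Bmp1 were all under 10-fold. Palld, an actin-bundling protein, had 1 peak of 28.8-fold (24.1 to 34.3) with 126 fragments, and its median peak stood at 5.02. Flnc, filamin C, reached 26.5-fold (21.1 to 33.0) at a peak near its 5′ end, and Phf2, a demethylase of the histone H3 tail, reached 26.3-fold (20.1 to 33.7). In Palld, Phf2 and Bmp1, a single peak stood far above the rest, while in Zmiz2 many peaks were strong, 6 of its 11 at 10-fold or more.

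Peak width was close to that of other genes. The median was 327 bp, against 301, 309 and 315 bp in genes with 1, 2 and 3 to 9 peaks. Widths of 1000 bp or more were seen in 221 peaks (5.82%, interval 5.12 to 6.61), where 5.44% of all single-gene peaks were that wide. The widest was a peak of 6307 bp in Plec, which encodes the cytoskeletal linker plectin, at 76172163 to 76178469 on chromosome 15 with 7.19-fold enrichment. Ahdc1, an AT-hook DNA-binding protein, had a peak of 5275 bp with 18.2-fold enrichment, and Zfhx3 had one of 4900 bp with 11.7-fold. A wide peak counts as 1 summit here, so a gene such as Plec with 13 summits can be enriched over more of its length than its count shows.

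Position along the gene could be read in 223 of the genes, those whose strand the promoter table gave. These positions are along the genomic span, introns included. Of their 3108 summits, 70.7% lay in the 3′-most 50% of the span. The share was 59.9%, 62.3% and 68.4% in genes with 1, 2 and 3 to 9 peaks. The 5′-most 10% held 6.11% of the summits, where it held 18.4% in genes with 1 peak, 14.9% with 2 and 10.1% with 3 to 9. The 3′-most 10% held 22.9%, against 24.1%, 24.5% and 26.4% in the other classes. By share of summits, the classes thus stood apart at the 5′ end and close together at the 3′ end. Each gene has a single 5′ end, so that share can fall as the summits per gene rise. By gene, a summit lay within 1 kb of the 5′ end in 79 of these 223 genes. With 1, 2 and 3 to 9 peaks it did so in 448 of 2125, 268 of 1002 and 546 of 1725 genes. More peaks also give more chances of such a summit, so a lack or excess at the 5′ end was not tested.

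**Figure D4:**
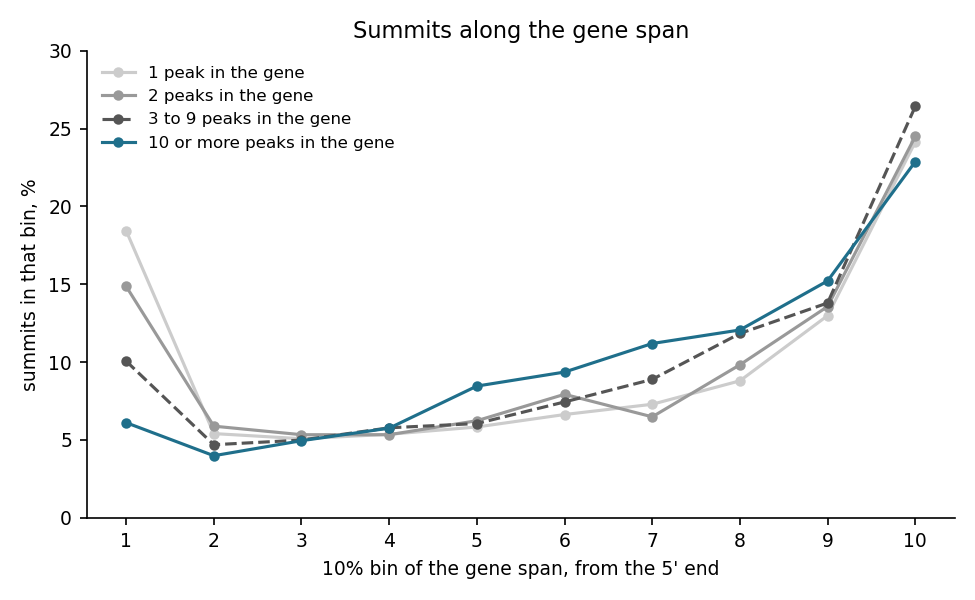
The share of summits in each 10% of the gene span, from the 5′ end, by the number of peaks in the gene. The blue line of genes with 10 or more peaks starts lowest, at 6.11% against 18.4% for genes with 1 peak, and ends near the others, at 22.9%. These are shares of summits and not of genes.

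Within 1 kb of the 5′ end lay 85 summits in 79 of the 223 genes. Their median enrichment was 6.48, with quartiles of 5.73 and 9.33, and 22.4% were of 10-fold or more. Summits within 1 kb of the 3′ end had a median of 5.10 and those elsewhere 5.83. The median background ran the other way, at 1.23 fragments near the 5′ end, 5.25 near the 3′ end and 3.33 elsewhere, and its part in the difference was not tested. In genes with 3 to 9 peaks the medians were alike, 6.60 near the 5′ end and 4.75 near the 3′ end.

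The highest peak of the gene lay within 1 kb of the 5′ end in 17 genes. Flnc was one, with its peak 313 bases from the 5′ end and 79 fragments. Aebp1 was another, with a peak of 22.5-fold (17.9 to 27.9) 324 bases from the 5′ end, whereas its other peaks ran from 1.94-fold to 7.60-fold. Ahdc1 stood at 20.5-fold 438 bases in, Cmip, a signalling adaptor, at 16.96-fold 228 bases in, and Atp2b4, a plasma membrane calcium pump, at 16.1-fold 216 bases in. The matrix and vessel genes Eng (the TGF-beta coreceptor endoglin, 14.4-fold), Col5a1 (a chain of collagen V, 10.4-fold) and Lamb2 (6.57-fold) were also among the 17. By share of span, the highest peak lay in the 5′-most 10% in 33 of the 223 genes and in the 3′-most 10% in 53, the parts that held 6.11% and 22.9% of all their summits.

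Of the 272 genes, 217 fell into 27 lists of families and functions made from gene symbols, and 55 into none. A list made this way can hold genes outside the function in its name. For each list the share with 10 or more peaks was counted among its genes with a peak, with the 5 genes set aside included, and read beside the 4.35% of all genes with a peak. It was above that in 21 lists and below in 6. The 3223 genes with a peak in no list had a share of 1.71%, which lowers the share of all genes, and the 3144 listed genes together had 7.06%. The lists were drawn up with earlier results of these data known, and gene span and background differ between them, so the shares describe where the 272 genes fall.

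**Figure D5:**
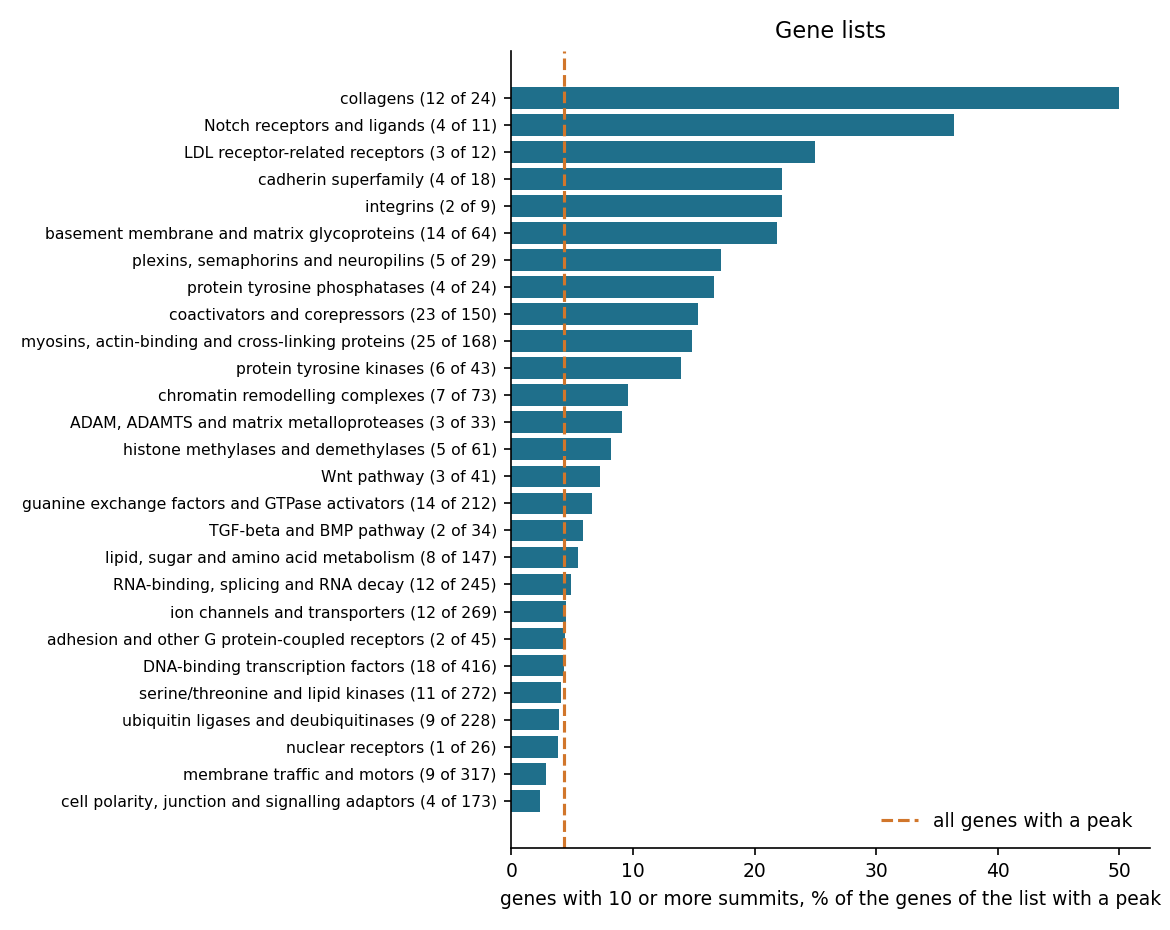
The share of genes with 10 or more summits among the genes with a peak, for 27 lists, with the counts beside each name. The dashed line is the 4.35% of all genes with a peak; collagens reach 50% (12 of 24) and cell polarity, junction and signalling adaptors 2.31% (4 of 173), and the counts include the 5 genes set aside.

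Collagens, the fibres and networks of the matrix, had the highest share. Of 44 genes, 24 had a peak and 12 (50%) reached 10: Col18a1, Col5a1, Col4a2, Col1a2, Col6a1, Col6a2, Col1a1, Col7a1, Col4a1, Col15a1, Col6a3 and Col16a1. Their enrichment was low, with gene medians from 2.96 to 5.35, and 0 of the 12 lay above the median of all peaks, where 162 of the 272 genes did. Collagen genes with a peak were long, with a median span of 110 kb, and their median background was 4.81 fragments. Col1a1 and Col1a2, the chains of collagen I, held 12 and 15 summits at medians of 4.84 and 3.49, while Col3a1, which was not in the set, held 6 at 2.84. In the basement membrane collagen IV, Col4a1 held 12 and Col4a2 held 22, Col4a5 held 2, and Col4a3, Col4a4 and Col4a6 held 0. In collagen VI, Col6a1 and Col6a2 held 13 each and Col6a3 held 11, Col6a4 held 4, and Col6a5 and Col6a6 held 0. These families, and the paralogs below, were picked out after the members were seen.

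Among basement membrane and matrix glycoproteins, 14 of 64 genes with a peak (21.9%) reached 10, Hmcn2 and Hspg2 among them. The other 12 were Fn1, Tnxb, Lama5, Ltbp4, Nid1, Sned1, Lamc3, Agrn, Fbln1, Gpc1, Cspg4 and Lamb2. Of 11 laminin chains, Lama5 held 27 summits, Lamc3 held 12 and Lamb2 held 10. Lamc1 held 8, Lamb1 held 4, Lama2 held 3, Lama4 held 1 and the other 4 chains held 0. Fn1 had the most peaks with a −log10 q of 10 or more, 34 of its 37, although its median enrichment was 4.53, over a median background of 16.6 fragments. Lamc3 showed the reverse, with a median of 8.41 over a background of 1.31. Matrix proteases and relatives added Adamts2, Bmp1 and Adamtsl4, 3 of 33.

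Receptors at the cell surface formed several small lists. Notch receptors and ligands, which signal between touching cells, had 4 of 11 (36.4%): Notch1 with 16 summits, Notch4 with 13, Jag2 with 11 and Notch3 with 10. Notch2 held 6. All 4 lay above the median of all peaks, and Notch4 had the highest median among the receptors, 7.48, over a background of 0.875 fragments. LDL receptor-related receptors had 3 of 12, namely Lrp5, a Wnt coreceptor, Lrp2, and Lrp1, which was set aside. Integrins had 2 of 9, Itgb4 and Itga3, both laminin-binding. The cadherin superfamily had 4 of 18: Celsr1, Dchs1, Celsr2 and Clstn1. Celsr2 held 14 summits in 25.2 kb at a median of 7.25, and Celsr3, of similar span at 26.9 kb, held 0.

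Plexins and semaphorins, a guidance receptor and ligand system, had 5 of 29 (17.2%): Plxnd1, Plxnb1, Plxna1, Sema5a and Plxnb2. Plxnd1, which acts in vessels, held 18 summits, up to 21.2-fold (16.8 to 26.5). Protein tyrosine phosphatases had 4 of 24, with Ptprs, Ptprf, Ptpru and Ptprm. Ptprs and Ptprf, LAR-type paralogs, held 39 and 18 summits with medians of 5.98 and 7.99, and their paralog Ptprd held 0 in 2271 kb. Protein tyrosine kinases had 6 of 43: Ephb2, Ddr1 (a collagen receptor), Ptk7, Jak3, Axl and Igf1r. Ephb2 held 22 summits, and Igf1r, the receptor of insulin-like growth factor 1, was among the 17 genes whose highest peak lay near the 5′ end, at 13.4-fold.

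The Wnt list had 3 of 41 (Dvl3, Lef1 and Bcl9), and the TGF-beta and BMP list 2 of 34 (Eng and Tgfbr3). Eng and Tgfbr3 are both coreceptors and differed in density: 12 summits in 36.1 kb at a median of 7.62 in Eng, and 10 in 183 kb at 3.83 in Tgfbr3. G protein-coupled receptors had 2 of 45 (4.44%), a share near that of all genes: the adhesion receptors Adgrl1 and Adgra2. Adgrl1 had 8 of its 18 summits inside a gene of another kind, the most of the set. Of 26 nuclear receptors with a peak, 1 (3.85%) reached 10, a share near that of all genes: the retinoic acid receptor Rara with 11. The receptors of estrogen and progesterone, Esr1 and Pgr, held 7 and 3.

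Enrichment differed between the lists of transcription and chromatin genes. Coactivators and corepressors had 23 of 150 (15.3%), Gse1 and Zmiz1 among them. The other 21 included Rere, Trrap, Auts2, Bahcc1, Fbrsl1, Crtc1, Hdac5, Tle3, Zmiz2, Cic, Bcor, Prr12, Phc2, Hdac7, Atxn2, Crtc3, Med25, Med13l, Hcfc1 and Mta1. The median of their gene medians was 6.97, and 19 of the 21 lay above the median of all peaks. The median background of genes of this list with a peak was 3.10 fragments, against 4.81 in the collagens.

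Chromatin remodelling complexes had 7 of 73: Arid1b with 17, Arid1a with 16, Smarca4 with 15, Ep400 with 14, and Chd4, Chd3 and Smarca2. The highest Arid1a peak stood at 26.1-fold (20.7 to 32.4), beside a median of 6.03. Histone methylases and demethylases had 5 of 61, Kmt2d, Setd1b, Phf2, Kmt2b and Ehmt2, and the peaks of Kmt2d covered 54.4% of its 42.4 kb. DNA-binding transcription factors had 18 of 416 (4.33%), a share near that of all genes. They included Nfix, Tshz2, Casz1, Gli2, Foxp4, Cux1, Foxk1, Nfic, Zfhx3, Tcf3, Rfx1, Mlxip, Srebf2, Pax2, Epas1, Zfp335 and Tcf4. In the nuclear factor I family, Nfix held 23 summits and Nfic 14, and Nfia and Nfib stood below the limit with 9 and 7.

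Myosins and actin-binding proteins, the contractile and cross-linking machinery, had 25 of 168 (14.9%). They were Nav1, Nav2, Tns1, Myh9, Flnc, Mylk, Tln1, Myh11, Palld, Mical3, Actn1, Lsp1, Lpp, Plec, Flna, Micall1, Mprip, Coro2a, Myo10, Epb41l1, Coro7, Smtn, Coro2b, Myo5b and Myo9b. Enrichment divided this list, with gene medians from 2.91 to 7.03 and 12 of 25 above the median of all peaks. Myh9, a nonmuscle myosin, held 21 summits at a median of 4.60 and Myh11 held 17 at 3.41, while Myh10 and Myh14 held 4 each. Flnc held 20 at 5.53 and Flna 13 at 2.91. The cytoskeletal genes Nav1 and Nav2 held 26 each, in 254 and 651 kb, and Nav3 held 1 in 774 kb.

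Guanine exchange factors and GTPase activators, which switch small GTPases, had 14 of 212 (6.60%). They included Dock6 (25 summits), Sipa1l3 (23), Agap1, Abr, Trio, Arhgef1, Dab2ip, Kalrn, Rapgef1, Bcr, Cdc42bpb, Arhgef17 and Tbc1d9b. Cdc42bpb, a kinase, entered this list by symbol. The list named for RNA-binding and RNA decay had 12 of 245 (4.90%), a share near that of all genes. It held Tnrc18, Prrc2b, Gigyf1, Eif4g3, Zc3h7b, Zcchc24, Zc3h4, Prrc2a, Samd4b, Hnrnpul1, Eif4g1 and Larp1. Tnrc18, a chromatin protein that entered this list by symbol, held 24 summits at a median of 9.12. Prrc2a had the highest floor of all 272 genes, with no peak below 6.61-fold, and a median of 98 fragments at its summits. The scaffold of translation initiation, eIF4G, was present with Eif4g3 (13 summits at a median of 8.53) and Eif4g1 (10 at 5.33), while Eif4g2 held 1 summit at 4.49.

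Ion channels and transporters had 12 of 269 (4.46%), a share near that of all genes. They were Piezo1, a stretch-gated channel, with 22 summits, Itpr2, Cacna1c, Atp2b2, Itpr3, Cacna1g, Grik5, Cacna1h, Atp2b4, Pkd1, Kcnd3 and Slc4a2. The calcium channel genes differed in enrichment, with a median of 3.93 in the L-type Cacna1c and of 8.11 and 7.997 in the T-type Cacna1g and Cacna1h. Their median backgrounds were 4.92, 1.31 and 0.875 fragments. Their relative Cacna1d held 2 summits and the IP3 receptor Itpr1 held 5, below the limit. The list named for metabolism had 8 of 147, Loxl2, Fasn, Man2b2, Pcx, Gaa, Man2a2, Aldh2 and Tgm2. In it, Loxl2 and Tgm2 are enzymes that cross-link proteins. Fasn, fatty acid synthase, held 13 summits in 19.2 kb, and peaks covered 55.1% of it.

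The remaining lists also lay near or below the share of all genes. The list named for serine/threonine and lipid kinases had 11 of 272 (4.04%). It held Speg, Prkag2, Pip5k1c, Dgkz, Wnk2, Mink1, Map4k4, Sik1, Sbf1, Inppl1 and Plcd3. Of these, Prkag2, Sbf1, Inppl1 and Plcd3 entered by symbol and are not themselves kinases. Ubiquitin genes had 9 of 228 (3.95%): Ubr4, Hectd4, Cul9, Huwe1, Sh3rf1, Ubap2, Fbxl19, Cul7 and Trim11. Membrane traffic and motors had 9 of 317 (2.84%): Sh3pxd2a, Dnm2, Dync1h1, Wdfy3, Tacc2, Nbeal2, Dnm1, Sh3bp1 and Ap3d1. Adaptors had Shank3, Fam120a, Jup and Scrib.

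The 55 genes in no list were sorted by known role after their names were seen. Of them, 14 encode surface or secreted proteins (among them Sdk2, Scube1, Heg1, Pear1, Ssc5d, Emid1, Fcgbp, App, Anpep, C3, Pth1r, Ttyh3 and Aebp1). Another 14 act in the cytoskeleton or in signalling (among them Pxn, Septin9, Crocc, Mtss2, Phldb1, Wwc1, Anks1, Ralgds, Mrvi1, Lmtk3, Nisch, Fryl and Cmip). Transcription and chromatin took 10 (Sbno2, Mllt6, Mllt1, Ahdc1, Zmynd8, Zfpm1, Sap130, Wiz, Cbfa2t3 and Cabin1), with a median enrichment of 6.54. RNA processing and translation took 6 (Ints1, Sympk, Gcn1, Clasrp, Rbpms and Dazap1), at 5.71. Lipid handling and autophagy took 5 (Pitpnm2, Atg2a, Acot7, Gdpd5 and Pacs2), and 6 were left without a role (Ttc28, 2900026A02Rik, Tmem94, Pcnx3, D630045J12Rik and Zswim8).

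The genes lay on every autosome and on the X chromosome. Of protein-coding genes with a peak, they made up 6.73% on chromosome 5 (28 of 416), 6.73% on chromosome 17 (23 of 342) and 6.57% on chromosome 15 (18 of 274). The autosome with the lowest share was chromosome 13, with 1.86% (4 of 215), and the X chromosome held 2.90% (4 of 138). The Y chromosome, with 1 gene with a peak, and the mitochondrial genome, with 8, held none. Some of the genes were neighbours, with 22 pairs within 100 kb of each other, with or without other genes between them. How often other genes with a peak lie as close was not counted. Col4a1 and Col4a2 overlapped by 84 bp. Hnrnpul1 and Axl lay 232 bp apart, Pxn and Gcn1 9130 bp apart, and Cul9, Ptk7 and Cul7 formed a run on chromosome 17. Notch4 and Tnxb, and Col6a1 and Col6a2 were other such pairs.

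A summit in a single protein-coding gene can still lie in a gene of another kind, such as a long noncoding RNA. This was so for 147 of the 3798 summits (3.87%), in 65 genes. In Smtn, smoothelin of smooth muscle, 5 of 10 summits also lay in the long noncoding RNA gene Gm11946, and in Fcgbp, an IgG Fc-binding protein, 7 of 10 lay in the pseudogene Gm21925. The peaks carry no strand, so the source of these summits cannot be told apart. A stricter level of certainty left fewer genes: 69 of the 272 kept 10 or more summits when only peaks with a −log10 q of at least 10 were counted, and in 6 genes all peaks were at that level.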

How the data were processed

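Per the labels' protocols, TRIzol was used for extraction and a directional NEBNext kit for the libraries. Per the submitters' processing notes, HISAT2 2.2.1, MACS3 3.0.0a7 and mm10 were used, with no settings given. The authors deposited 1 narrowPeak list with a score, a fold enrichment (a ratio) and −log10 p and −log10 q values per peak. The largest q was 0.0499. Depth per library was not used here. The fragments and background at each summit were recovered from the deposited fold enrichment (with a pseudocount of 1) and −log10 p, which matched a whole number within a relative 1e-04 in 21192 of 21192 peaks. The recovery was tested on simulated data. Intervals cover counting error only. Those of fold enrichment cover only the pull-down fragments, with the background taken as known, so its own error is left out. PCR copies could not be told from molecules.

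Summits were assigned to spans of protein-coding genes in the RefSeq GRCm38 table with pandas 2.3.3, numpy 2.4.6 and SciPy 1.17.1. Strand came from RefSeq promoter sequences. The members and lists were chosen with earlier results of these data known. Genes named are those with most summits, the densest and sparsest, the highest and lowest median enrichment, the highest single peak, the closest and widest spacing, the widest peaks, the shortest and longest spans, and those leading each list, beside members, paralogs and genes near the 5′ end picked after their values were seen. A few genes that this choice would name are counted but not reported here. With 1 library per group no test was made. Alternatives were other peak levels, assignment rules, joining of peaks and other limits on the number of peaks.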

Additional observations from a re-analysis of the deposited data

How the results depend on the processing

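No paired analysis was possible because each group was 1 library, and no library could be left out. Counting only peaks with a −log10 q of at least 10 gave 69 genes with 10.6% of single-gene summits, 1.82 peaks per 10 kb, a spacing of 2122 bp, a fold enrichment of 7.27 and a width of 356 bp. Counting only peaks at or above the median fold enrichment gave 71 genes with 9.60% of summits, a spacing of 2212 bp, a fold enrichment of 7.997 and a width of 358.5 bp. Joining peaks less than 500 bp apart gave 141 genes with 11.7% of summits, 1.26 per 10 kb and a spacing of 3648.5 bp. A limit of 8 gave 497 genes with 29.2% of summits, and a limit of 12 gave 153 genes with 13.2%. These follow from fewer or more peaks and genes counted. Density over the distance from the first to the last summit was 2.93 per 10 kb, a shorter length by construction. Counting summits of several genes in each gave a fold enrichment of 5.69, and the cause was not tested. The number of genes was 273 by peak midpoint, 294 with summits of several genes counted and 253 without summits in genes of another kind. All 253, 141, 69, 71 and 153 genes under the fewer-peak settings were among the 272. Low fragment numbers, such as the median of 9 in Lmtk3, limit single peaks most.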
